A study of Mus musculus with 12 samples.

Results

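Transcripts of 10 genes that liver makes in response to inflammation or metal were followed across female and male mice with a stabilised interferon-gamma message. They were the serum amyloid A genes Saa1, Saa2 and Saa3, the lipocalins Lcn2, Orm1 and Orm2, the haemoglobin and haem binders Hp (haptoglobin) and Hpx (hemopexin), and the metallothioneins Mt1 and Mt2. Each was chosen by name and found as an entry of its own among the 19852 genes of the deposited table. All 10 passed the filter on low values, which kept 10568 genes with at least 0.5 RPKM in at least 3 libraries. RPKM is a read count scaled to transcript length and to library total, so levels of different genes can be set side by side.

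The samples were whole livers of C57BL/6 mice aged 20 weeks, in 4 groups of 3 libraries. Female WT and male WT were control littermates. Female ARE-Del and male ARE-Del mice carried a deletion that takes the AU-rich element, a destabilising sequence, out of the Ifng message, and the series title describes them as having chronic interferon-gamma expression. The extraction text names ARE-Del-/- mice in the records of all 12 samples, the WT ones included, so genotype was taken from the samples' genotype label. The labels state n = 3 and do not say further that the samples are separate animals, so the p-values below measure only the spread between these samples.

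The acute phase response is the change in plasma protein output that hepatocytes make when cytokines, chiefly interleukin 6 and interleukin 1, reach the liver. Serum amyloid A, haptoglobin, hemopexin and the orosomucoids (Orm1 and Orm2) are secreted positive acute phase proteins, and lipocalin 2 binds the iron carriers of bacteria. Metallothioneins are small cysteine-rich proteins that bind zinc and copper inside the cell. Their genes respond to metal through the zinc-sensing factor MTF1 and also to glucocorticoids and cytokines.

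Ifng itself was listed at 0.0742 to 0.238 RPKM in the 6 ARE-Del libraries and at 0 to 0.0382 in the 6 WT libraries. Relative sequencing depth, estimated from the commonest ratio of low values, ran from 0.907 to 1.46 times that of female WT 1. Hepatocyte markers (14 genes, none at 0 in any library) summed to 35258 to 37003 RPKM in female WT and 41058 to 42935 in female ARE-Del, without overlap. In males the sums were 25524 to 26261 in WT and 24964 to 34015 in ARE-Del. Albumin (Alb) made up much of these sums, at 26184 to 28657 RPKM in female WT and 32826 to 34499 in female ARE-Del. As a set the 14 genes did not rise in females. There 1 was called higher and 1 lower (limma), against 25.8% and 5.53% of all tested genes, and their median log2 change was -0.05. In males 3 were called higher and none lower, with a median of 0.13. The library labelled female ARE-Del 2 stood apart. Its Xist, the RNA of the inactive X chromosome, was 0.0456 RPKM against 33.0 to 45.6 in the other female libraries, while the Y-linked Ddx3y was listed at 0 there as in the other females. It was also the highest library of all 12 for 9 of the 10 genes, Saa3 being the exception. The female changes of the 10 genes are therefore given with and without it. The 10 genes together took 4.35% of summed RPKM in that library and 1.11% to 3.00% in the other libraries.

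Promoter sequence was available from RefSeq (GRCm38.p6; the expression table was made on mm9) for 8 of the 10 genes, as windows of 300 bases that start 250 bases before the transcription start. Hp and Orm1 had no window. The metallothionein windows are shown first because they carry repeats of the metal response element core, the letters MTF1 binds (TGCACNC or TGCGCNC on either strand), which are in capitals. Both are shown to 30 bases after the start, as chr8:94178839-94179118 for Mt1 and chr8:94172368-94172647 for Mt2, plus strand.
Mt1: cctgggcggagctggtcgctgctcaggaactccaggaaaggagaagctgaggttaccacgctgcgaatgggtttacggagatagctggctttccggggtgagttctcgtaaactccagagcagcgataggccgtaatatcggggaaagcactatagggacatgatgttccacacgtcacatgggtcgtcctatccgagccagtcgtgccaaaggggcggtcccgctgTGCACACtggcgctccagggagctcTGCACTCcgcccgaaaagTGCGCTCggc
Mt2: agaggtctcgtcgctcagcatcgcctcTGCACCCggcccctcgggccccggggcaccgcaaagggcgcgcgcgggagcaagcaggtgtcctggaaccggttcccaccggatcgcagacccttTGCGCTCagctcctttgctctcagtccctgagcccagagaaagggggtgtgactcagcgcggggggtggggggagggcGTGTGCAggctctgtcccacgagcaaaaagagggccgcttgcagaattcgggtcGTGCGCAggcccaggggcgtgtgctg

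Mt1 held 3 such cores, with first bases 23 bases before and 3 and 21 bases after the start, and 1.97% of 32851 windows held at least 3. Positions here and below count from the start that RefSeq lists, and the start used in these livers was not examined. Mt2 held 4, with first bases 223, 128 and 50 bases before and 5 bases after the start, and 0.517% of windows held at least 4. None of the 6 acute phase windows held the core, which at least once occurred in 25.7% of all windows.

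The acute phase windows shared a different sequence, the C/EBP motif TTGCNNAA (either strand), in capitals below. C/EBP factors are the liver regulators through which many acute phase genes respond to interleukin 6. The Saa1 window, chr7:46742951-46743230 on the minus strand, and the Saa2 window, chr7:46751583-46751862 on the plus strand, are shown because the pair is nearly the same, with 96.0% identity over 299 aligned bases.
Saa1: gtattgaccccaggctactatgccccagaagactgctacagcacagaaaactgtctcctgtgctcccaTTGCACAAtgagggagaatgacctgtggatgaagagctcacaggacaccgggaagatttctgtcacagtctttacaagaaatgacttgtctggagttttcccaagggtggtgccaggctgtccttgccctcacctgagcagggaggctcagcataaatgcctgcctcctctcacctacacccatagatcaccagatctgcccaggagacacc
Saa2: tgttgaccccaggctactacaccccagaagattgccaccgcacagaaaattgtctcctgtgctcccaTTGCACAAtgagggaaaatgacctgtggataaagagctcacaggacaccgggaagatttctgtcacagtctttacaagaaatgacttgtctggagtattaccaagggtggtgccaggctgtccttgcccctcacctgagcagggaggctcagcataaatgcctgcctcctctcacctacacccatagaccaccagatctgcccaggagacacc

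For the other acute phase genes 40 bases around the motif are shown, from chr7:46715752-46715791 (minus strand) for Saa3, chr2:32387932-32387971 (minus) for Lcn2, chr4:63362313-63362352 (plus) for Orm2 and chr7:105600293-105600332 (minus) for Hpx.
Saa3: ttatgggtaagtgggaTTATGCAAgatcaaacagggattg
Lcn2: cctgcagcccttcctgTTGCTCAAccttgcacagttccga
Orm2: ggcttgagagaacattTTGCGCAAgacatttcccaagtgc
Hpx: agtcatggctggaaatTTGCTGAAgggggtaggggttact

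The C/EBP motif occurred once in each of the 6 acute phase windows, with its first base 182 bases before the start in Saa1, 183 in Saa2, 99 in Saa3, 216 in Lcn2, 120 in Orm2 and 200 in Hpx. In Saa3 the match lies on the opposite strand. Of all windows 10.8% held it. Mt2 also held 1 copy, 12 bases before its start, and Mt1 none. The STAT motif TTCNNNGAA was in none of the 8 windows (8.3% of all windows), nor was the kappaB consensus (8.46%). No match of 1 motif overlapped a match of another. These are letter matches in short windows and say nothing about binding in these livers.

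Saa1 and Saa2, which encode the major circulating forms of serum amyloid A, were low in most livers and very high in 3 of them. Saa1 was at 4.38, 7.17 and 7.55 RPKM in female WT and at 7.51, 129 and 6.96 in female ARE-Del. In males it was at 5.61, 100.3 and 5.76 in WT and at 76.2, 11.5 and 8.59 in ARE-Del. The 3 livers at 76.2 RPKM or more thus came from 3 different groups, 1 of them WT, and the genotypes overlapped in both sexes. The log2 fold change was 1.52 ± 1.21 in females (SE; 95% interval -1.12 to 4.15; limma, Benjamini-Hochberg adjusted p = 0.370) and 0.34 ± 1.21 in males (-2.30 to 2.98; adjusted p = 0.867). With the library labelled female ARE-Del 2 left out, the female value was 0.19 ± 1.09. In bulk liver, fewer cells of a type and less RNA per cell cannot be told apart, here and in all that follows.

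Saa2 marked out the same livers. In females it was at 2.86, 3.60 and 5.03 RPKM in WT and at 5.11, 108 and 4.04 in ARE-Del. In males it was at 1.14, 48.1 and 2.67 in WT and at 27.4, 4.46 and 3.24 in ARE-Del. The group means were 39.2 ± 59.9 (SD, n = 3) in female ARE-Del and 3.83 ± 1.11 in female WT, so the SD of the first exceeded its mean. The log2 fold change in females, 1.66 ± 1.26, had an interval from -1.09 to 4.40 (adjusted p = 0.347), and it was 0.23 ± 1.11 when the library labelled female ARE-Del 2 was left out. Saa1 over Saa2 ran from 1.19 to 4.92 across the libraries, with a median of 2.04. Their transcripts are 94.4% identical over 606 aligned bases, and 9.1% of the 50-base stretches of Saa1 occur unchanged in Saa2. RefSeq also lists each symbol as an older name of the other, so which of the pair an entry of this table counts is uncertain.

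Saa3, the form made largely outside hepatocytes, for example by macrophages, did not follow the other SAA genes. It was at 1.47, 1.46 and 2.15 RPKM in female WT and at 3.07, 2.24 and 1.42 in female ARE-Del, groups that overlapped. In males it was at 1.29, 1.87 and 1.24 in WT and at 4.01, 4.31 and 1.60 in ARE-Del, where 2 of the 3 ARE-Del libraries exceeded each WT library. The change was 0.25 ± 0.25 in females (adjusted p = 0.491), or 0.23 ± 0.29 with female ARE-Del 2 left out, and 0.74 ± 0.25 in males (adjusted p = 0.0526), and averaged over the sexes Saa3 rose by 0.50 ± 0.18 (adjusted p = 0.0400). The male change was 1.07 ± 0.19 (adjusted p = 0.00333) without male ARE-Del 3, the lowest library of its group. That averaged call was lost in 8 of the 12 fits that left out 1 library and under both other scalings of the values, which are described below.

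Lcn2 encodes lipocalin 2, which withholds iron from bacteria. In females its RPKM was 1.33, 3.00 and 2.42 in WT and 6.40, 72.7 and 8.49 in ARE-Del, and the groups did not overlap. In males it was 0.343, 3.98 and 0.613 in WT and 8.27, 2.50 and 1.69 in ARE-Del, with overlap. The male WT library at 3.98 was the one with high Saa1. Lcn2 rose in females by 2.45 ± 0.77 on the log2 scale (adjusted p = 0.0304), and the male change was 1.00 ± 0.77 (-0.68 to 2.69; adjusted p = 0.385). With the library labelled female ARE-Del 2 left out, the female change was 1.40 ± 0.57 (adjusted p = 0.0857), and the call averaged over the sexes, 1.73 ± 0.55 (adjusted p = 0.0237), was kept at 1.20 ± 0.38 (adjusted p = 0.0252). The female call of Lcn2 was also lost when any single female WT library was left out (adjusted p = 0.0541 to 0.0893), and the averaged call without female WT 1, male WT 1, male WT 3 or male ARE-Del 1 (0.0518 to 0.0595).

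Orm1 and Orm2 encode orosomucoids (alpha-1-acid glycoproteins), plasma carriers of lipophilic compounds. Orm1 was abundant throughout. Female livers had 542, 482 and 589.7 RPKM in WT and 663, 1289.8 and 581 in ARE-Del, and male livers 409, 764 and 451 in WT and 851, 658 and 549 in ARE-Del. The groups overlapped in both sexes. Its change was 0.56 ± 0.29 in females (-0.08 to 1.20; adjusted p = 0.168) and 0.38 ± 0.29 in males (adjusted p = 0.393). Orm2 was lower and more variable. It was at 24.0, 21.5 and 23.6 RPKM in female WT and at 38.2, 206 and 31.4 in female ARE-Del, groups that did not overlap. In males it was at 4.50, 41.9 and 7.92 in WT and at 32.6, 16.2 and 11.0 in ARE-Del. The female change of 1.41 ± 0.76 missed the threshold (adjusted p = 0.178), and the male change was 0.57 ± 0.76 (adjusted p = 0.629). With the library labelled female ARE-Del 2 left out, the female changes were 0.21 ± 0.25 for Orm1 and 0.57 ± 0.67 for Orm2. Orm1 over Orm2 ranged from 6.26 in the library labelled female ARE-Del 2 to 90.7 in male WT 1. The 2 transcripts are 91.0% identical and share 20.4% of their 50-base stretches, so reads may have been split between them in a way the table does not show. Without male WT 2 the averaged changes of Orm1 (0.61, adjusted p = 0.0270) and Orm2 (1.43, adjusted p = 0.0245) passed the threshold, and that of Orm1 also without female ARE-Del 3 (0.58, adjusted p = 0.0463).

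Hp and Hpx were higher in every ARE-Del library than in any WT library of the same sex. Haptoglobin, which captures free haemoglobin, was at 493, 661 and 653 RPKM in female WT and at 1077, 2412 and 1318 in female ARE-Del. In males Hp was at 677, 1151 and 593 in WT and at 1744, 1216 and 1295 in ARE-Del. The groups lay far apart in females and narrowly apart in males, where 1216 in ARE-Del stood next to 1151 in WT. Hp rose in females by 1.33 ± 0.30 (adjusted p = 0.00447). In males the change was 0.86 ± 0.30 and just missed the threshold (adjusted p = 0.0585), with a 95% interval of 0.21 to 1.50. Without male WT 2, the WT library with high Saa1, the male change of Hp was 1.14 (adjusted p = 0.0188). The male change of Hp also passed when female ARE-Del 1 (adjusted p = 0.0460) or female ARE-Del 2 (0.0227) was left out, since all groups share 1 estimate of the spread.

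Hemopexin, which captures free haem, was the most abundant of the 10 transcripts. Hpx was at 1169.7, 1089.7 and 1481 RPKM in female WT and at 2503, 4414 and 2806 in female ARE-Del. In males it was at 1058, 1826 and 868 in WT and at 2940.5, 2256 and 2417 in ARE-Del, so the WT library with high Saa1 was again the highest of its group. Hpx rose by 1.35 ± 0.26 in females (adjusted p = 0.00198), by 1.09 ± 0.26 in males (adjusted p = 0.0127) and by 1.22 ± 0.19 averaged over the sexes (adjusted p = 0.000246). The female rises held without the library labelled female ARE-Del 2, at 1.10 ± 0.26 for Hpx (adjusted p = 0.00801) and 1.00 ± 0.26 for Hp (adjusted p = 0.0138). The male Hpx change was 1.00 (adjusted p = 0.0562) without male WT 1 and 0.86 (adjusted p = 0.0534) without male WT 3. Hpx over Hp stayed between 1.46 and 2.37 in the 12 libraries.

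Mt1 and Mt2 had higher means in females than in males of the same genotype, and in ARE-Del than in WT of the same sex. Mt1 was at 9.06, 66.4 and 10.4 RPKM in female WT and at 64.7, 280.1 and 61.3 in female ARE-Del. In males Mt1 was at 0.631, 4.97 and 1.65 in WT and at 4.48, 13.4 and 25.4 in ARE-Del. In females 1 WT library, female WT 2, reached the ARE-Del level, and in males 1 ARE-Del library lay just below the highest WT library. Mt1 rose by 2.41 ± 0.82 in females (adjusted p = 0.0424) and by 2.26 ± 0.58 averaged over the sexes (adjusted p = 0.00797), and its male change was 2.11 ± 0.82 (0.32 to 3.90; adjusted p = 0.0868).

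Mt2 followed Mt1 at a lower level. Female livers had 1.29, 31.3 and 2.64 RPKM in WT and 29.5, 161 and 31.4 in ARE-Del, and male livers 0.160, 1.63 and 0.371 in WT and 1.89, 6.61 and 11.5 in ARE-Del. The male groups did not overlap, while female WT 2 again reached the ARE-Del libraries. Mt2 rose by 3.07 ± 0.92 in females (adjusted p = 0.0229) and by 2.54 ± 0.65 averaged over the sexes (adjusted p = 0.00756), and its male change was 2.01 ± 0.92 (adjusted p = 0.139). Without female WT 2 the male changes of Mt1 (adjusted p = 0.0464) and Mt2 (0.0496) passed. With the library labelled female ARE-Del 2 left out, the female changes were 1.70 ± 0.83 for Mt1 (adjusted p = 0.149) and 2.28 ± 0.93 for Mt2 (adjusted p = 0.0867), and the averaged changes still passed at 1.90 ± 0.56 (adjusted p = 0.0176) and 2.15 ± 0.62 (adjusted p = 0.0167). The female calls of both were likewise lost without female WT 1 (adjusted p = 0.142 for Mt1 and 0.0932 for Mt2) or without female WT 3 (0.129 and 0.0783), and that of Mt1 without male ARE-Del 2 (0.0533) or male WT 3 (0.0537). The Mt1 and Mt2 transcripts share no stretch of 50 bases.

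**Figure D1:**
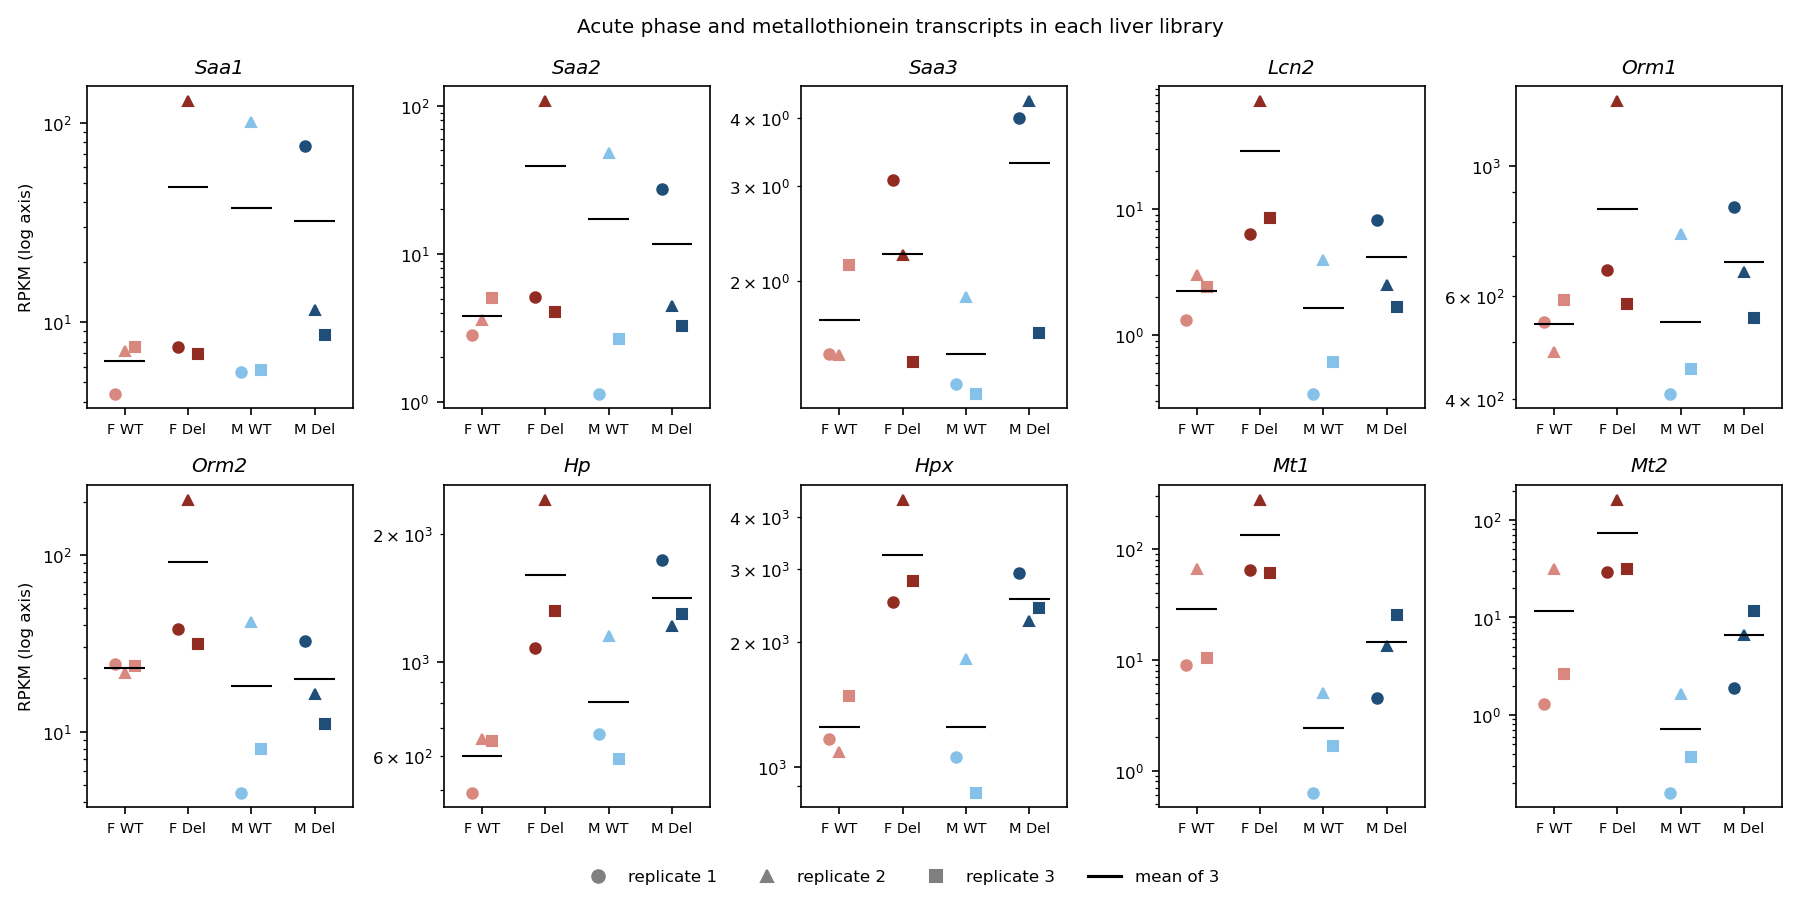
RPKM of each gene in each of the 12 liver libraries (log axis, its range set per gene), by group: F WT and F Del are female WT and ARE-Del, M WT and M Del the male groups; marker shape is the replicate number and the bar is the mean of 3. Saa1 and Saa2 reach their highest values in single libraries of 3 groups, whereas every ARE-Del library lies above the WT libraries of its sex for Hp and Hpx.

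Counted over the set, 5 of 10 genes rose with ARE-Del in females (Lcn2, Hp, Hpx, Mt1 and Mt2), against 25.8% of all tested genes called higher, and none fell (5.53% of all genes did). In males 1 of 10 rose (Hpx), against 19.5% of all genes higher and 2.04% lower. Averaged over the sexes 6 of 10 rose, Saa3 being the addition, against 35.9% higher and 6.6% lower. The median log2 change of the 10 was 1.47 in females and 0.80 in males, and over all tested genes it was 0.09 and 0.10. The libraries of ARE-Del lay wholly above those of WT for 4 genes in females (Lcn2, Orm2, Hp and Hpx; 34.9% of all genes) and for 3 in males (Hp, Hpx and Mt2; 36.1%). With all libraries the male share of called genes is below the background and the female and averaged shares are above it.

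The female share depended on single libraries. Leaving out female ARE-Del 2, female WT 1 or female WT 3 each lost the female calls of Lcn2, Mt1 and Mt2. When the library labelled female ARE-Del 2 was left out, Hp and Hpx were called in females, 2 of 10 against 26.1% of all genes, so the share fell below the background. The median change of the 10 in females was then 0.78, close to the male 0.80. Hp, Hpx, Lcn2, Mt1 and Mt2 were then called in the average, 5 of 10 against 36.9%. Median-of-ratios scaling lowered the median of all genes in females from 0.09 to -0.01 and moved the split of all called genes from 2722 higher and 584 lower to 1915 and 1750. Quantile normalization gave 1616 higher and 2497 lower. Of the 10 genes 4 were called higher in females under either scaling, against 18.1% of all genes with median-of-ratios and 15.3% with quantile normalization. In the average 5 were called higher under either, against 21% and 16.8%, and none was called lower. Their median change in females went from 1.47 to 1.32 and 1.34.

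**Figure D2:**
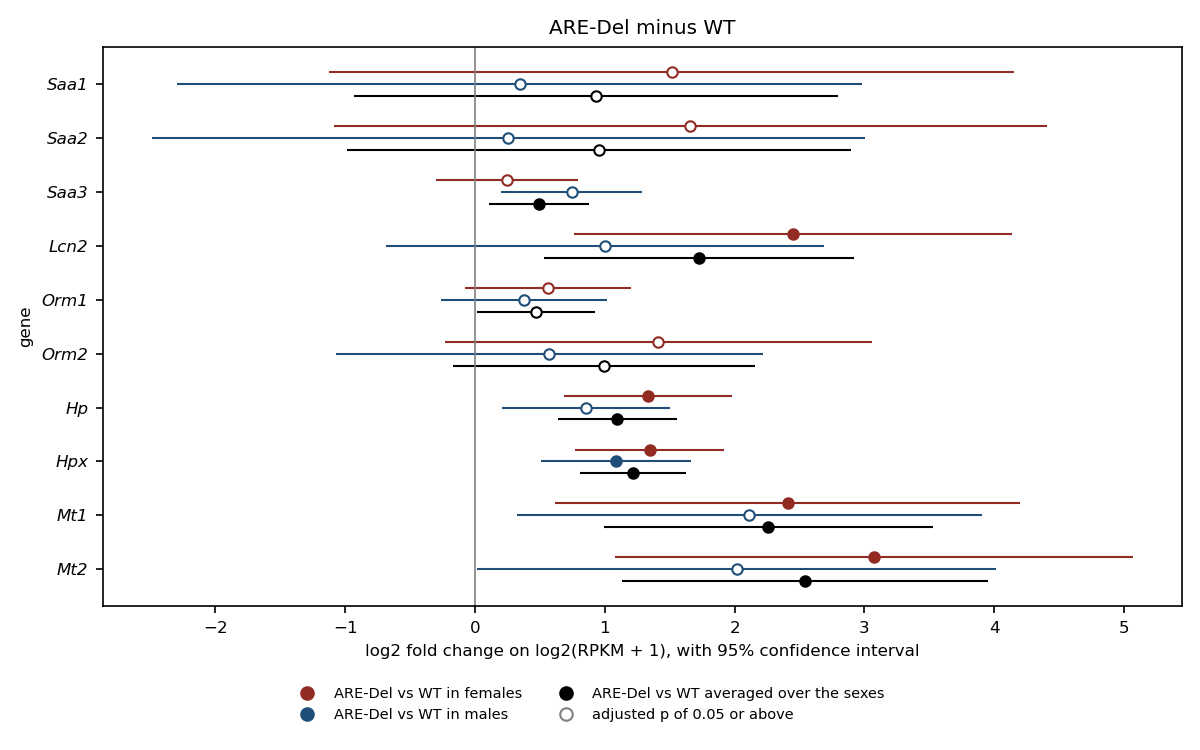
Change of each gene, ARE-Del minus WT, on the log2(RPKM + 1) scale with its 95% confidence interval, in females, in males and averaged over the sexes; filled points have an adjusted p below 0.05. The intervals of Hp and Hpx are narrow and those of Saa1 and Saa2 extend over both signs.

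The difference of the genotype effect between the sexes was tested directly. None of the 10 genes passed (limma; 0 at an unadjusted p under 0.05 as well), against 0.568% of all genes. The intervals were wide. For Lcn2 the female change exceeded the male change by 1.44, with an interval of -0.94 to 3.83, and for Hpx by 0.26, with an interval of -0.56 to 1.08. With female ARE-Del 2 left out these differences were 0.40 ± 0.76 and 0.0149 ± 0.35. A call in females and not in males is therefore not shown to be a sex difference for any of these genes.

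Between the sexes, with all libraries, only the metallothioneins were called, and only in ARE-Del livers. In ARE-Del livers Mt1 was higher in females by 3.04 ± 0.82 on the log2 scale (adjusted p = 0.0202) and Mt2 by 3.06 ± 0.92 (adjusted p = 0.0323). The female means, 135 ± 125 RPKM for Mt1 and 74.0 ± 75.5 for Mt2 (SD, n = 3), compared with 14.4 ± 10.5 and 6.68 ± 4.83 in males, and the libraries did not overlap for either gene (26.7% of all genes were higher in females without overlap). These 2 were the only genes of the 10 called, against 16.4% of all genes called higher in females. Both calls were lost without the library labelled female ARE-Del 2, at 2.32 ± 0.83 for Mt1 (adjusted p = 0.0698) and 2.27 ± 0.93 for Mt2 (adjusted p = 0.109). They were lost too without male ARE-Del 1 (adjusted p = 0.0762 and 0.111) or male ARE-Del 2 (0.0530 and 0.0737). Between the sexes in ARE-Del, Lcn2 passed without female ARE-Del 1 (2.58, adjusted p = 0.0491) and Saa3, lower in females, without male ARE-Del 3 (-0.70, adjusted p = 0.0254).

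In WT livers none of the 10 was called between the sexes, against 9.76% of all genes, although 2 had an unadjusted p under 0.05 (limma). Those were Mt1 and Mt2. Mt1 was higher in all 3 female WT libraries than in any male WT library (18.9% of all genes were), by 2.74 ± 0.82 (adjusted p = 0.0556, or 0.0395 when the library labelled female ARE-Del 2 was left out), and Mt2 was higher by 2.002 ± 0.917 with overlap (adjusted p = 0.196). For Mt1 and Mt2 the order of group means was female ARE-Del, female WT, male ARE-Del, male WT, in which female WT and male ARE-Del overlapped. Female ARE-Del had the highest mean of the acute phase genes too, except for Saa3, which was highest in male ARE-Del. With the library labelled female ARE-Del 2 left out, male WT had the highest mean of Saa1 (37.2 RPKM, against 7.23 in female ARE-Del) and Saa2 (17.3 against 4.57), and male ARE-Del that of Orm1 (686 against 622) and Hp (1418 against 1198). With all libraries the lowest mean was in female WT for Saa1, Saa2, Orm1, Hp and Hpx and in male WT for the others. Female and male WT overlapped for each of the 8 acute phase genes, as did female and male ARE-Del. In the orders of those genes the sexes within a genotype are therefore not separated beyond the spread. Male ARE-Del and male WT, neighbours in the orders of Hp and Hpx with all libraries, did not overlap for either gene.

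Variation between livers of the same group was unusually large for these genes. The pooled within-group SD on the log2 scale was 1.89 for Saa2 and 1.82 for Saa1, the largest and the second largest of the 10568 tested genes, whose median SD was 0.0988. Mt2 (1.38) ranked 4, Mt1 (1.23) ranked 6, Lcn2 (1.16) ranked 8 and Orm2 (1.13) ranked 9. Hp (0.435), Orm1 (0.429), Hpx (0.384) and Saa3 (0.370) ranked between 130 and 218, still far above the median gene. The log2(RPKM + 1) scale shrinks the SD of genes near or below 1 RPKM, and no comparison with genes of like level was made. The ranks include the library labelled female ARE-Del 2.

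The variation was shared. The library labelled female ARE-Del 2 was the highest of its group for 9 of the 10 genes, male WT 2 for all 10, and male ARE-Del 1 for 7. In male ARE-Del 1, the exceptions included Mt1 and Mt2, which were at their lowest of the group there. In female WT, where no liver had high Saa1, Mt1 and Mt2 were highest in female WT 2, at 66.4 and 31.3 RPKM, while Saa1 was 7.17 there and 7.55 in female WT 3.

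**Figure D3:**
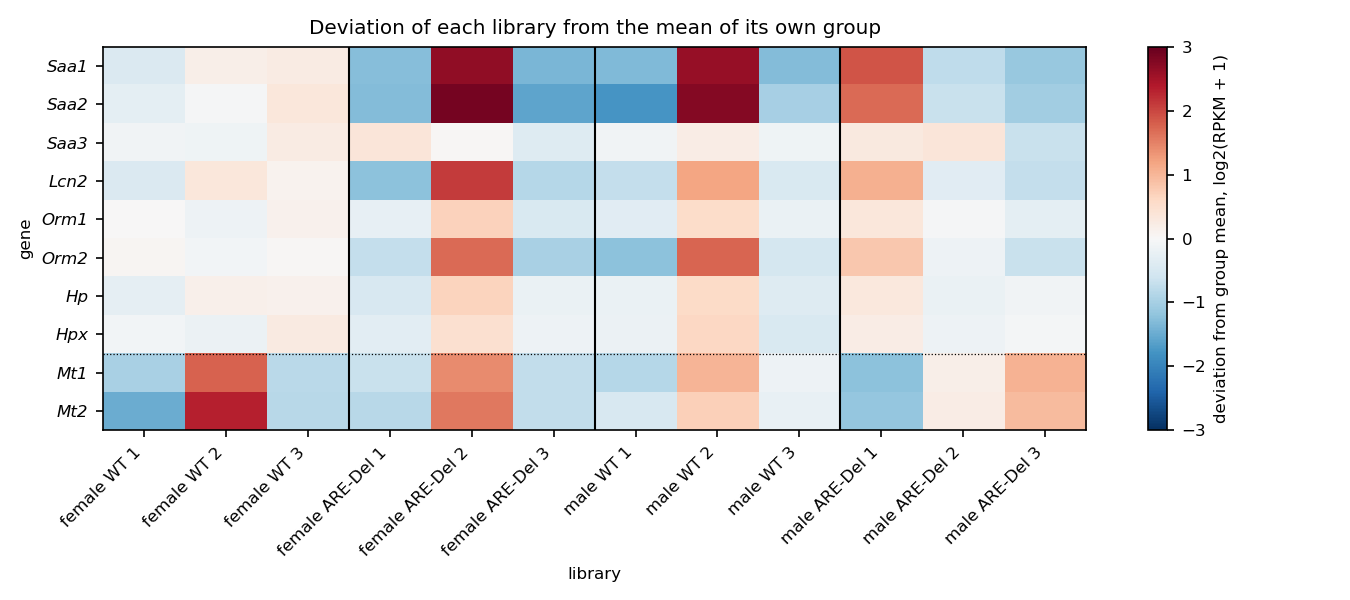
Deviation of each library from its group mean on the log2(RPKM + 1) scale, with red above and blue below the mean; rows are genes, columns are libraries, vertical lines separate the 4 groups and the dotted line sets off the metallothioneins. The acute phase rows are red together in female ARE-Del 2, male WT 2 and male ARE-Del 1, and the metallothionein rows are red in female WT 2 and blue in male ARE-Del 1.

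As a description over the 12 libraries, after subtracting each group's mean, the 7 acute phase genes other than Saa3 correlated with each other at r = 0.829 to 0.991 (21 pairs, median 0.927; Spearman's rho 0.615 to 0.972). Leaving out for each pair the 2 libraries in which its first gene lay farthest from the median gave 0.613 to 0.978. That step, here and below, kept the group means of all 12 libraries. The other libraries of those groups thus still carried a shift from the ones left out, so it cannot show robustness. With group means recomputed without the library labelled female ARE-Del 2, r among the 7 was 0.738 to 0.986. Saa3 correlated with those 7 at 0.198 to 0.485. Mt1 and Mt2 correlated with each other at 0.973 (rho 0.930; 0.957 without the 2 farthest libraries). Between the metallothioneins and the 7 acute phase genes r was 0.217 to 0.496, and -0.288 to 0.219 without the 2 farthest libraries. It was -0.201 to 0.248 with group means recomputed without the library labelled female ARE-Del 2. The points of each correlation share their libraries and depth, and the library labelled female ARE-Del 2 was high in both sets of genes.

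**Figure D4:**
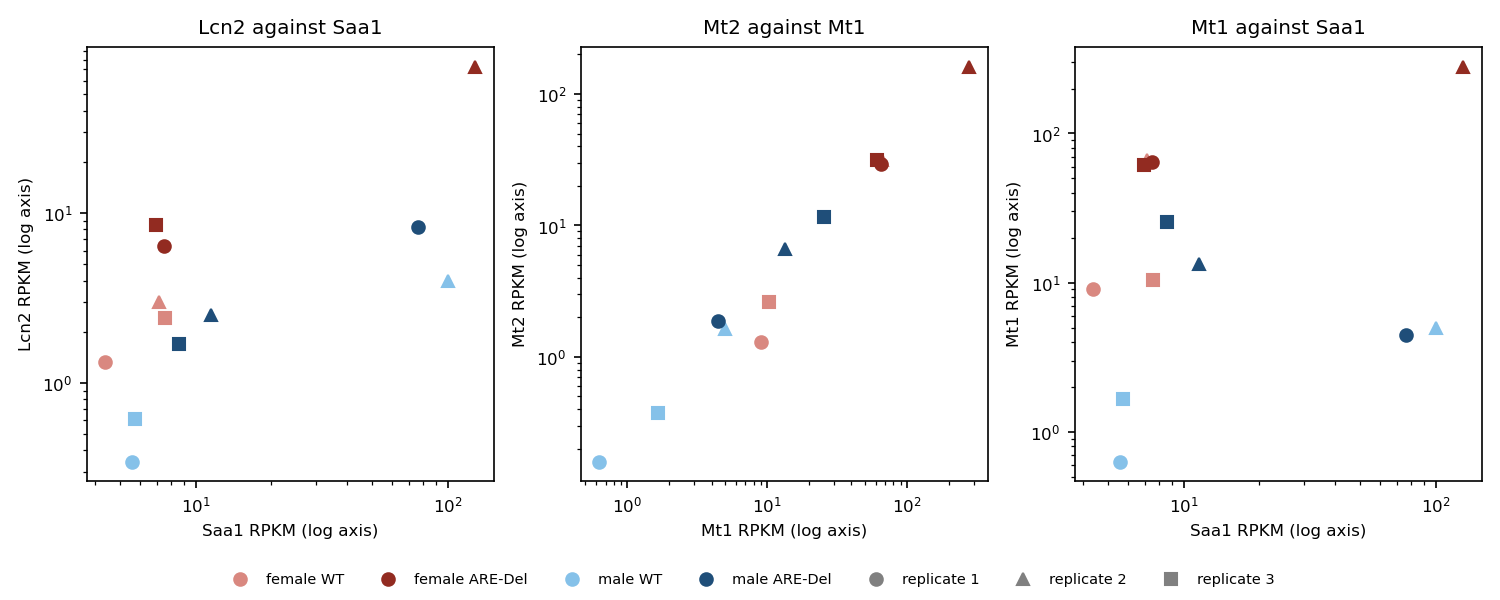
RPKM of gene pairs in the 12 libraries on log axes, with colour for the group and marker shape for the replicate number: Lcn2 against Saa1, Mt2 against Mt1, and Mt1 against Saa1. Mt1 and Mt2 lie along a single band across all groups, while the 3 livers with the highest Saa1 have Mt1 at 4.48, 4.97 and 280.1 RPKM.

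The genes most like a given member were ranked by the same within-group r among 8654 genes with a plain symbol. For Saa1 they were Prg4 (0.978), which encodes the lubricant glycoprotein lubricin, Apcs (0.964), the serum amyloid P component, Itih4 (0.957), Trfr2 (0.955), an older symbol of transferrin receptor 2, and Lrg1 (0.952). For Lcn2 they were Cyb561 (0.978), Lrg1 (0.972), Prg4 (0.950), Dnajc12 (0.943) and Apcs (0.939). For Hp they were Lrg1 (0.970), Itih3 (0.954), Trfr2 (0.940), Prg4 (0.932) and Apcs (0.927). Prg4, Apcs and Lrg1 thus appeared in all 3 rankings. Without the library labelled female ARE-Del 2 the same r values lay between 0.860 and 0.979.

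The genes most like Mt1 were others: the transcriptional corepressor gene Nab2 (0.921), the interferon-induced GTPase gene Mx2 (0.903), B9d2 (0.859), Ccrn4l (0.825) and Slc43a1 (0.824), at 0.756 to 0.918 without the library labelled female ARE-Del 2. Of 24 further positive acute phase genes tested, 11 (45.8%) had an r above 0.8 with Saa1, as did 60 of 10558 genes outside the set (0.568%). None of those 24 had an r above 0.8 with Mt1, and 15 of all genes did. Pck1, a gluconeogenic enzyme gene picked out after its value was seen, had an r of 0.80 with Mt1 and 0.14 with Saa1.

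The other genes of the response were read from lists. Their counts stand beside the shares of all tested genes called. These were 25.8% higher and 5.53% lower in females, 19.5% and 2.04% in males, and 35.9% and 6.6% in the average. Some genes, Cxcl1 among them, stand in more than 1 list. Of 24 other positive acute phase genes tested, 15 rose in females, 8 in males and 16 in the average, and none fell, with median changes of 0.78, 0.43 and 0.63. Without the library labelled female ARE-Del 2 the female count was 14 with a median of 0.56. Under median-of-ratios scaling the counts were 14 in females and 5 in males, and under quantile normalization 13 and 4. The neutrophil attractant gene Cxcl1 rose in females by 1.31 ± 0.32 (adjusted p = 0.00775), Itih3, an inter-alpha-trypsin inhibitor heavy chain, by 1.13 ± 0.24 (0.00351), Steap4, a metalloreductase gene, by 1.03 ± 0.18 (0.000794), and Serping1, the C1 inhibitor, by 0.98 ± 0.13 in females (9.33e-05) and 0.76 ± 0.13 in males (0.0013). The changes of the hepcidin gene Hamp1 were -0.16 ± 0.28 and -0.25 ± 0.28 and those of Crp, the C-reactive protein gene, -0.06 ± 0.12 and 0.30 ± 0.12, in females and males, and neither passed; both were named after their values were seen.

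Negative acute phase genes, most of which encode plasma proteins whose output usually drops in the response, did not fall as a group. The list also held the enzyme genes Tat and Cyp2c29. Of 19 tested, 5 rose and 3 fell in females, 7 rose and none fell in males, and the medians were -0.04 and 0.27. The share that rose in females is close to the 25.8% of all genes called higher, and the male share is above its 19.5%. The share that fell in females is above the 5.53% of all genes called lower. In the average 8 rose and 4 fell, against 35.9% and 6.6% of all genes, so the share that fell is above the background there too. Apoa1, the main HDL apolipoprotein, rose by 0.82 ± 0.14 in females and 0.57 ± 0.14 in males, and transferrin (Trf) by 0.47 ± 0.10 and 0.62 ± 0.10. Ahsg (0.37 and 0.48) and Itih1 (0.39 and 0.32) also rose in females and males. These calls are sensitive to scaling. Under median-of-ratios scaling 1 of the 19 rose and 4 fell in females, and of these genes Apoa1 kept its call in females and Trf its call in males. The calls of Ahsg in both sexes and of Apoa1 and Itih1 in males were also lost when some single libraries of that sex were left out, among them male ARE-Del 3 and male WT 3 in males (adjusted p = 0.0585 to 0.133 for these 2 libraries). Among the genes that fell, Rbp4 changed by -0.33 in females (limma, adjusted p = 0.0201), a call lost in 3 of the 12 fits without 1 library. Ttr changed by -0.23 in the average (limma, adjusted p = 0.0295), a call lost in 7 of them. Both were named after their values were seen.

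Upstream of the acute phase genes, Il6 was listed at 0 to 0.023 RPKM and was not tested. Of 13 genes tested on the interleukin 6 and STAT3 axis, 9 rose in females and 7 in males, none fell, and the medians were 0.46 and 0.37. The male count was 4 under quantile normalization. The interleukin 6 receptor gene Il6ra rose by 0.59 ± 0.15 in females and 1.23 ± 0.15 in males. Stat3, the factor it signals through, rose by 0.76 ± 0.10 and 0.42 ± 0.10, the male call being lost under both other scalings (adjusted p = 0.108 and 0.0963). Socs3, its feedback inhibitor, rose by 0.78 ± 0.15 in females and changed by 0.42 ± 0.15 in males (adjusted p = 0.0686). Il10rb, a shared receptor chain, rose by 0.54 ± 0.08 and 0.37 ± 0.08.

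On the interleukin 1, TNF and NF-kB axis 19 of 21 genes rose in females and 13 in males, none fell, and the medians were 0.66 and 0.37. Under quantile normalization 7 rose and 1 fell in males. Il1b, the cytokine gene itself, rose by 1.50 ± 0.10 in females and 0.70 ± 0.10 in males. Icam1, an adhesion molecule gene, rose by 1.41 ± 0.12 and 0.89 ± 0.12, and the chemokine gene Cxcl10, which interferon-gamma also induces, by 1.89 ± 0.19 and 1.56 ± 0.19. Among receptors for serum amyloid A and lipocalin 2, 6 of 7 rose in females and none fell, and in males 6 rose and 1 fell. The gene that fell was Cd36, a fatty acid and lipoprotein receptor, by 0.69 ± 0.18 in males (adjusted p = 0.0158), a call lost without male ARE-Del 3, male WT 1 or male WT 3 (0.0540 to 0.0633). It was named after its value was seen, and its female change was 0.0139 ± 0.18. The formyl peptide receptor gene Fpr1 rose by 1.88 ± 0.14 in females and 1.41 ± 0.14 in males, and its relative Fpr-rs2 by 2.18 ± 0.14 and 1.06 ± 0.14. The effect on Fpr-rs2 was larger in females by 1.12 ± 0.19 (adjusted p = 0.0351), and that on Il1b by 0.80 (adjusted p = 0.0378). These 2 differences missed the threshold in 7 and 8 of the 12 fits that left out 1 library, and under median-of-ratios scaling (adjusted p = 0.0544 and 0.0629). The Toll-like receptor gene Tlr2 rose by 1.41 ± 0.13 and 0.99 ± 0.13, and P2rx7, which encodes an ATP-gated channel, by 1.04 ± 0.10 and 0.46 ± 0.10.

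The genes that handle what Hp and Hpx carry were mixed. Of 14 haem and iron genes 6 rose and 1 fell in females, 3 rose and none fell in males, and the medians were 0.12 and 0.22. The share that rose is above the 25.8% of all genes in females and close to the 19.5% in males. Hmox1, which breaks down haem, rose by 2.32 ± 0.24 in females and 1.53 ± 0.24 in males. Cd163, the macrophage receptor for haptoglobin-bound haemoglobin, fell by 1.48 ± 0.32 in females (adjusted p = 0.00341) and its male change was -0.16 ± 0.32 (adjusted p = 0.749), a difference between the sexes that did not pass (adjusted p = 0.241). Lrp1, the receptor for haem-bound hemopexin, rose by 0.60 ± 0.09 in females, with 0.24 ± 0.09 in males (adjusted p = 0.0812). Cp, the copper-carrying ferroxidase ceruloplasmin, rose by 0.85 ± 0.10 and 0.72 ± 0.10.

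Other genes tied to the metallothioneins had smaller changes. Of 14 tested zinc and metal genes 3 rose and 1 fell in females, 4 rose and none fell in males, and 7 rose and 1 fell in the average, with medians of 0.15, 0.14 and 0.18. The share that rose is below the 25.8% of all genes in females. It is above the 19.5% in males and the 35.9% in the average. Without the library labelled female ARE-Del 2, 5 rose and 1 fell in the average, and none fell in females. The female split was 2 higher and 3 lower under median-of-ratios scaling and 1 and 4 under quantile normalization, and 1 gene rose in males under either. In the average 3 rose and 2 fell under median-of-ratios scaling and 3 and 4 under quantile normalization. Mtf1, the metal sensor that binds the core shown above, changed by 0.01 ± 0.07 in females and 0.08 ± 0.07 in males and did not pass. Slc30a1, the zinc exporter gene that MTF1 also controls, had changes of 0.16 ± 0.10 and 0.28 ± 0.10 and did not pass in either sex. Averaged over the sexes Slc30a1 rose by 0.22 (adjusted p = 0.0279), a call lost in 5 of the 12 fits without 1 library. Mtf1 and Slc30a1 were named after their values were seen. The zinc importer genes Slc39a4 and Slc39a1 rose in 1 sex each, Slc39a4 by 0.90 ± 0.16 in males and Slc39a1 by 0.47 ± 0.07 in females. Slc39a14, the zinc importer of the acute phase response, rose by 0.36 ± 0.12 in females (adjusted p = 0.0442), a call lost under both other scalings and in 8 of the 12 fits without 1 library. Slc30a10 fell by 0.38 ± 0.11 in females (adjusted p = 0.0204), a call lost without female ARE-Del 2, female ARE-Del 3 or female WT 3 (0.0614 to 0.0842). The difference between the sexes did not pass for Slc39a4 (-0.74, adjusted p = 0.191) or Slc39a1 (0.32, adjusted p = 0.222).

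Of 16 glucocorticoid-responsive genes 3 rose in females and 8 in males, none fell, and the medians were 0.38 and 0.72. The female share is below the 25.8% of all genes called higher and the male share above its 19.5%. The female count was again 3, with a median of 0.21, when the library labelled female ARE-Del 2 was left out. Igfbp1, an insulin-like growth factor binder, rose by 2.90 ± 0.39 and 2.37 ± 0.39, and Cdkn1a, a cell cycle inhibitor gene, by 1.12 ± 0.21 and 1.68 ± 0.21. Gadd45g rose in females by 1.71 ± 0.45, and the serine dehydratase gene Sds in males by 1.38 ± 0.33, a call lost without male WT 1 (adjusted p = 0.0532). Against 25.8% of all genes called higher in females and 19.5% in males, 3 of 10 genes of the NRF2 oxidative stress response rose in each sex. They were Hmox1, G6pdx (1.08 ± 0.21 in females and 0.90 ± 0.21 in males) and Keap1 (0.29 ± 0.08 and 0.32 ± 0.08), with Keap1 not called under either other scaling, nor in females without female WT 3 (adjusted p = 0.0598) or in males without male WT 1 (0.0577).

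Markers of several other cell types moved with genotype beside these results, not all in the same direction or in both sexes. Monocyte and macrophage markers (18 genes, none at 0 in any library) summed to 139 to 238 RPKM in female WT and 765 to 920.4 in female ARE-Del, and to 97.8 to 164 in male WT and 429 to 526 in male ARE-Del. Neutrophil markers, a cell type that also makes Lcn2, were far lower, at 2.11 to 6.51 RPKM in female WT, 5.35 to 14.3 in female ARE-Del, 1.67 to 4.04 in male WT and 2.65 to 6.36 in male ARE-Del. The library labelled female ARE-Del 2 had both the highest sum and the highest Lcn2. Female ARE-Del 3 came next in both, but its Lcn2 (8.49 against 72.7 RPKM) lay much further below than its sum. In both male groups the library with the highest sum also had the highest Lcn2 of its group. In female WT it did not. Female WT 3 had the highest sum there, with Lcn2 at 2.42 RPKM, below the 3.00 of female WT 2. The granule genes Mpo and Ela2 were at 0 in 10 of 12 libraries and at no more than 0.0708 and 0.168 RPKM elsewhere. Of the 13 neutrophil markers, which leave out Lcn2, 8 were at 0 in some library. Cholangiocyte markers (8 genes, Tff3 at 0 in some library) summed to 7.70 to 10.2 RPKM in female WT and 20.0 to 26.2 in female ARE-Del, and to 9.76 to 10.2 in male WT and 28.0 to 87.2 in male ARE-Del. Tff3 among them, a secreted trefoil peptide gene, was listed at 0 in female WT, at 5.65 to 15.99 RPKM in female ARE-Del, at 0.407 to 0.642 in male WT and at 11.2 to 76.5 in male ARE-Del. Endothelial and stellate markers (12 genes, none at 0) overlapped in females, at 29.7 to 46.8 in WT and 46.1 to 56.8 in ARE-Del, and did not overlap in males, at 20.2 to 28.8 and 34.6 to 49.99. Adipocyte markers (8 genes, 4 at 0 in some library) summed to 5.96 to 6.73 in female WT and 7.95 to 10.9 in female ARE-Del. They overlapped in males, at 7.33 to 9.32 and 6.24 to 7.41. Erythroid markers (4 genes, 2 at 0 in some library) overlapped in females, at 69.0 to 142 in WT and 58.6 to 106 in ARE-Del. In males they were lower in ARE-Del, at 54.4 to 80.4 against 80.7 to 109 in WT. The part of other cell types in the changes of the 10 genes was not tested.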

How the data were processed

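Total RNA was taken from liver with Trizol and made into libraries with an Illumina TruSeq kit, per the labels' protocols. The authors deposited RPKM values, made with Trimmomatic 0.30, TopHat2 2.0.8, Partek and GenomeStudio 6.6 on mm9, per the submitters' processing notes. How reads were counted, and whether by strand, is not given in the sources used here.

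The 12 libraries' log2(RPKM + 1) values entered limma 3.58.1 (R 4.3.3), with a mean for each of the 4 groups, eBayes with trend, and Benjamini-Hochberg adjustment over 10568 tested genes at 0.05 within each of 6 comparisons. The fit was tested on simulated data. Fold changes on this scale are smaller than true ratios for genes near 1 RPKM. Errors are SE for changes and SD for levels. Alternatives were other pseudocounts, filters, scalings, variance models, library weights, fits of the compared groups alone, a replicate block and leaving out each library.

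The 10 genes and the 16 other lists (260 entries in 20 lists with the 4 that divide the 10 genes; 13 matched by an older symbol, 12 unmatched and 4 merged with other genes left out) were chosen with earlier results of these data known. Genes were named by rule: the 10 genes, up to 4 called genes a list by average change, and the 5 genes with the highest within-group r for Saa1, Lcn2, Hp and Mt1.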

Additional observations from a re-analysis of the deposited data

How the results depend on the processing

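Depth is known only relative to 1 library, and with 3 libraries a group the median gene's pooled SD of 0.0988 was far below that of Saa1 and Saa2, and the intervals of these 2 spanned both signs. Of the 10 genes, 2 were called in females with robust eBayes or with no filter and 3 with only the compared groups in the fit. In males 3 were called with library weights, 0 with no filter, 4 with only the compared groups and 5 with the replicate block. Between the sexes in WT 1 was called with only the compared groups, pseudocounts of 0.1 or 0.5, or the replicate block. In ARE-Del 0 were called with robust eBayes or no filter and 1 with a pseudocount of 0.1. Genes of the whole table whose genotype effect differed between the sexes numbered 60, against 32 with a filter at 1 RPKM, 153 with library weights, 30 with no filter, 14 and 15 with pseudocounts of 0.1 and 0.5, 106 with quantile normalization and 32 with the replicate block. For the average and the difference of effects all groups are compared, so the fit of the compared groups alone was not run.

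Same-numbered libraries deviated together at r = -0.291 to 0.245, so the numbers were not taken to pair the samples. The replicate block left the female and averaged counts within 1.5 times their values. Leaving out 1 library gave 2 to 5 called of the 10 genes in females, 0 to 3 in males, 4 to 8 in the average, 0 for the difference of effects, 0 to 1 between the sexes in WT and 0 to 3 in ARE-Del. Over all genes those counts were 2479 to 3278, 1271 to 2480, 3834 to 4484, 11 to 114, 535 to 1126 and 1453 to 2498.

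No called change reversed its sign. Among uncalled ones, library weights turned the difference of effects of Orm1 to -0.0936 and of Hpx to -0.0107, and the sex difference in ARE-Del of Saa2 to -0.11 and of Hp to -0.0644. A pseudocount of 0.1 turned the difference of effects of Mt1 to -0.16, and median-of-ratios scaling the sex difference in WT of Orm1 to -0.00998. Leaving out 1 library gave ranges with both signs. In males they were -0.60 to 1.65 for Saa1, -0.63 to 1.63 for Saa2 and -0.0366 to 1.45 for Orm2. For the difference of effects they were -0.15 to 2.11 for Saa1, -0.0313 to 2.29 for Saa2, -0.16 to 0.41 for Orm1, -0.0316 to 1.45 for Orm2, -0.0498 to 0.49 for Hpx and -0.42 to 1.18 for Mt1. Between the sexes in WT they were -1.86 to 0.11 for Saa1, -1.50 to 0.76 for Saa2, -0.13 to 0.32 for Orm1 and -0.17 to 0.37 for Hpx. In ARE-Del they were -1.35 to 0.92 for Saa1, -0.65 to 1.64 for Saa2, -0.12 to 0.45 for Orm1 and -0.23 to 0.35 for Hp. The cause of these changes was not tested.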
